A study of Rattus norvegicus with 12 samples.

Results

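The genes described here are 10 core genes of the Notch pathway, taken by symbol from a fixed list in both tables of the series. They comprise the receptors Notch1, Notch2 and Notch3, the ligands Dll1, Dll3 and Jag1, and the transcriptional repressors Hes1, Hes5, Hes6 and Hey1. All 10 were found among the 16468 genes listed in each table.

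RNA-seq was performed on HCN cells, neural stem cells isolated from the hippocampus of adult rats and kept as a cloned line. Cells grown with FGF2 alone proliferated (TAP conditions), and cells grown with FGF2 and BMP4 were in induced quiescence (iQNP conditions). In each condition the control was made of 2 libraries of cells that had received the empty vector by electroporation. REST knockdown was made of 4 libraries of cells that had received a vector with a hairpin against Rest, so that there were 12 libraries in all. The comparisons ask which transcripts differ once REST, a repressor of neuronal genes, is depleted in quiescent or proliferating cells.

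The 4 groups differed in growth medium and vector and in nothing else that the labels give. Every group had FGF2 in the medium and every group was electroporated, and 1 hairpin sequence was used, with an empty vector rather than another hairpin as control. The sources used here do not say whether the cells for RNA-seq were sorted for the vector.

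The files give 1 value per gene and group in FPKM, a fragment count divided by the length of the transcript and by the number of mapped fragments, made by the authors' software from all libraries of the group. No SD, interval or test across libraries could be computed, and the depth of each library is unknown here. The word "higher" or "lower" therefore describes group values, not a tested difference. Ratios are log2((knockdown FPKM + 1)/(control FPKM + 1)), given for genes with a mean of at least 1 FPKM over the groups compared, and a gene was counted where this ratio reached 2-fold. A fold printed beside the values of a gene is the plain ratio of FPKM without the added 1. At low FPKM such a fold is larger than the log2 ratio beside it would give.

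Notch receptors are membrane proteins that are activated by ligands on neighbouring cells. Ligand binding exposes the receptor to cleavage by ADAM proteases and then by gamma-secretase, and the freed intracellular domain joins the DNA-binding protein RBPJ and Mastermind coactivators to switch on Hes and Hey genes. Hes1, Hes5 and Hey1 encode repressors of proneural genes, and Notch signalling is known for holding adult hippocampal neural stem cells in an undifferentiated state. Hes6 differs from the others, as it can counteract Hes1 and promote neuronal differentiation.

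The promoters of Hes1, Hes5 and Dll1 are shown because they were the ones that held the RBPJ core TGGGAA among the 9 genes matched in a RefSeq promoter table of build GRCr8. Hey1 was not among the 9, so its promoter was not searched. The 250 bases before each start site were searched on both strands. Capitals mark each match, written TTCCCA where it lies on the other strand.
Hes1, chr11:84213046-84213295, minus strand: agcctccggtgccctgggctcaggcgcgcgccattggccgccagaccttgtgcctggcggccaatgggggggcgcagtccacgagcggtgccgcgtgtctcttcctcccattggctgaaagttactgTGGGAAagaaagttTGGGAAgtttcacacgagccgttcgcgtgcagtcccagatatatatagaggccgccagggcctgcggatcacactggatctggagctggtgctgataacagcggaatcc
Hes5, chr5:170804327-170804510, plus strand: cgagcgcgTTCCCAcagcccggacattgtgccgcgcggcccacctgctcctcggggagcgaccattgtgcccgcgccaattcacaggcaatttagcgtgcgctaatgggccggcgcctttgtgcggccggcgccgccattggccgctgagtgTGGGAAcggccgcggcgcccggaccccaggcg
Dll1, chr1:64993275-64993524, minus strand: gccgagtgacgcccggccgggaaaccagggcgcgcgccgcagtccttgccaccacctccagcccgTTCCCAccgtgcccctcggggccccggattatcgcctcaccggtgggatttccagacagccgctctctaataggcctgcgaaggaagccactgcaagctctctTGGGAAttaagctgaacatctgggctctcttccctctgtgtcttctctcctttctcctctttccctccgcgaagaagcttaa
For Hes5 the last 66 bases before the start site are not shown, as another start of the gene is annotated there.

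Each of these promoters held 2 matches. In Hes1 they lay 123 and 109 bases before the start site, on the same strand and close together. The longer form GTGGGAA, which contains the core, was met 1 time in Hes1, 2 times in Hes5 and 1 time in Dll1. Over all 33469 promoters of the table, 22.1% held the core and 5.27% the longer form. The N box CACNAG, a sequence that Hes proteins bind, was held by 4 of the 9 promoters, where 37.2% of all promoters held it. It was met 4 times each in Hes1 and Notch1 and 1 time each in Notch3 and Hes6. A match is a run of letters and says nothing of binding.

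Rest itself was lower in both knockdown groups. Its values were 48.7 FPKM in control iQNPs and 13.9 in knockdown iQNPs, 3.51-fold lower. Those in TAPs were 27.8 and 9.002 FPKM, 3.09-fold lower. Of the neural stem cell markers, all 6 lay at or above 1 FPKM in every group, with Sox2 between 172 and 278 FPKM and Pax6 between 1.31 and 4.69. They did not differ alike between conditions. Fabp7 was at 130 FPKM in control iQNPs and 1011 in control TAPs, and Vim at 3671 and 1220. Microglial, endothelial and fibroblast or mural markers were low, their summed levels lying between 0.146 and 3.93 FPKM. Summed neuron markers lay between 114 and 182 FPKM, and summed astrocyte markers between 392 and 562, with Aqp4 at most 0.0661 FPKM. Most of each astrocyte sum came from S100b, at 374 to 521 FPKM. Within these lists Gfap, an astrocyte and neural stem cell gene, was at 17.0 FPKM in control iQNPs and 18.9 in knockdown, and at 1.06 and 1.36 in TAPs. The neuronal tubulin gene Tubb3 was at 58.4 and 126 FPKM in iQNPs and 21.4 and 58.9 in TAPs. Map2, another neuronal cytoskeleton gene, was at 110.5 and 47.9 FPKM in iQNPs and 102 and 48.9 in TAPs. Of the same neuron list, Dcx lay between 2.33 and 8.21 FPKM over the groups and Neurod1 between 0.916 and 3.16. The part of such cells in the Notch gene ratios was not tested. Oligodendrocyte lineage markers summed to between 1153 and 1234 FPKM, although Mog was at most 0.126 FPKM in each group. As the libraries are bulk RNA, fewer cells of a type and less RNA per cell cannot be told apart.

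The level of the Notch genes depended strongly on the growth condition for some members and hardly for others. In control iQNPs the order of levels was Hey1, Notch1, Notch2, Jag1, Hes1, Dll1, Hes6, Notch3 and Dll3, and Hes5 was listed at 0. In control TAPs it was Notch1, Jag1, Notch2, Hey1, Hes1, Dll1, Hes6, Hes5 and Notch3, and Dll3 was listed at 0. With no spread over libraries, which neighbours in these orders differ was not tested.

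**Figure D1:**
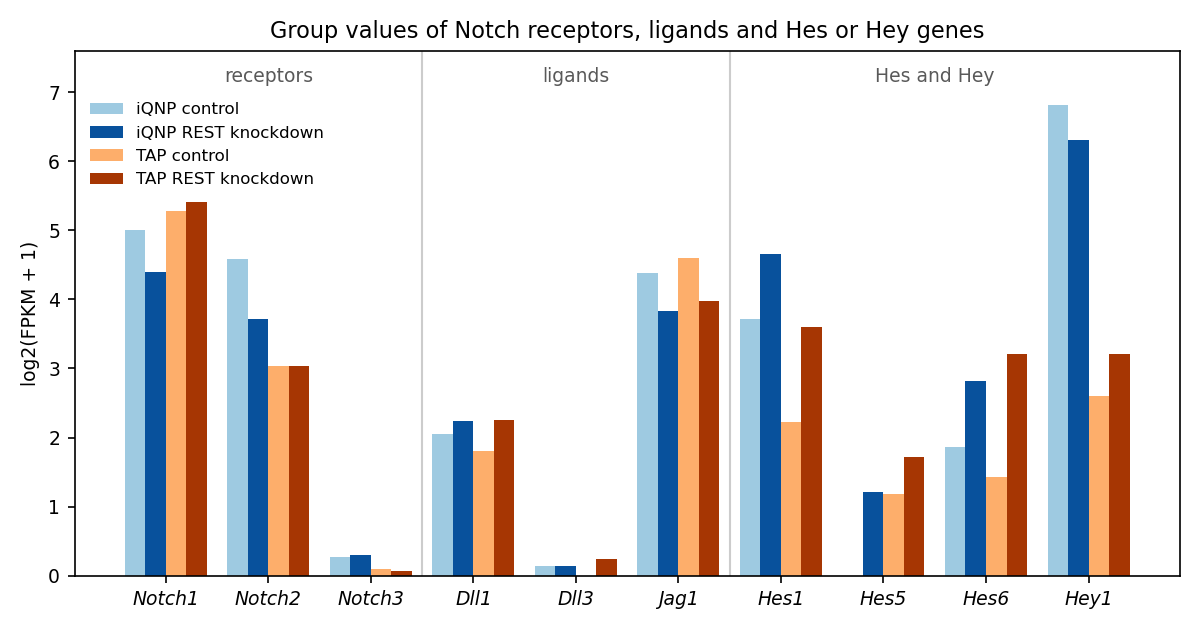
Group values of the 10 genes as log2(FPKM + 1), 1 bar per group and no error bars because each group has 1 value. Hey1 in iQNPs is the tallest pair of bars, at 112 FPKM in control and 78.5 in knockdown, and Notch3 and Dll3 are close to 0 throughout.

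Hey1, an effector of Notch that BMP signalling can also induce in other cell types, was the member that differed most between conditions. It stood at 112 FPKM in control iQNPs and at 5.05 in control TAPs, 22.1-fold lower in TAPs. After REST knockdown it stood at 78.5 FPKM in iQNPs and 8.23 in TAPs, 9.53-fold lower. Its level was above that of 94.0% of all listed genes in control iQNPs and of 54.0% in control TAPs. Hey1 alone made up 88.3% of the summed FPKM of the Hes and Hey genes in control iQNPs, a sum of 127 FPKM, and 43.2% of a sum of 11.7 FPKM in control TAPs.

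Hes1, the best known Notch effector in neural progenitors, was at 12.2 FPKM in control iQNPs and 3.67 in control TAPs, 3.32-fold lower. Notch2 was at 22.9 and 7.23 FPKM in the same groups, 3.17-fold lower in TAPs. Hey1, Hes1 and Notch2 were thus the 3 of 7 members past the minimum that were at least 2-fold lower in control TAPs, where 10.4% of all genes were, and none was at least 2-fold higher, where 6.07% were. The same 3 were lower once genes of like locus length were subtracted, where 9.61% of all genes were lower and 6.49% higher. Notch1 (31.3 FPKM in control iQNPs, 38.0 in control TAPs), Jag1 (19.9 and 23.2) and Dll1 (3.15 and 2.496) lay within 1.3-fold of each other across conditions. The tables of the conditions were normalized separately, so these ratios join values from separate runs.

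In knockdown cells the same comparison gave 2 of 8 members at least 2-fold lower in TAPs, where 9.56% of all genes were. These were Hey1 and Hes1, at 24.3 FPKM in iQNPs and 11.1 in TAPs. The receptor Notch1 was the 1 member at least 2-fold higher, at 20.2 FPKM in iQNPs and 41.5 in TAPs (log2 ratio 1.01), where 4.17% of all genes were. After the median of genes of like locus length was subtracted, the ratio of Notch1 was 0.997 and that of Hes1 -0.80, so that both lay within 2-fold. On that scale 5.13% of all genes were at least 2-fold higher, with no member among them, and 8.23% lower, with Hey1 as the 1 member.

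The comparison of REST knockdown with control in iQNPs gave 0 of 7 members past the minimum at least 2-fold higher, against 14.4% of all genes, and 0 at least 2-fold lower, against 3.15%. Within those limits Notch1, Notch2, Jag1 and Hey1 were lower and Dll1, Hes1 and Hes6 higher. The median log2 ratio of the 7 members was -0.50, beside 0.0027 over all 9586 genes past the minimum, and 3 of them lay above 0 and 4 below. This median was -0.27 once the median of genes of like locus length was subtracted.

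Among receptors in iQNPs, Notch1 was at 31.3 FPKM in control and 20.2 in knockdown, 1.55-fold lower (log2 ratio -0.61). Notch2 was at 22.9 and 12.2 FPKM, 1.88-fold lower (log2 ratio -0.86). Notch3, a receptor best known from mural cells, was at 0.204 and 0.228 FPKM and did not pass the minimum. The summed level of the receptors was 54.3 FPKM in control and 32.6 in knockdown. The locus of Notch1 spans 45844 bases of the rat build rn4 (chromosome 3, 4631796 to 4677640), and that of Notch2 spans 131303 (chromosome 2, 192855286 to 192986589).

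Among ligands in iQNPs, Jag1, a Serrate-type ligand (chromosome 3, 125181062 to 125216481), was at 19.9 FPKM in control and 13.3 in knockdown, 1.497-fold lower (log2 ratio -0.55). Dll1, a Delta-type ligand (chromosome 1, 54240069 to 54248180), was at 3.15 and 3.71 FPKM. Its log2 ratio of 0.18 turned to -0.22 where both groups were scaled to an equal FPKM sum and to -0.23 with genes of like span subtracted. Dll3, a Delta-like protein that acts within the cell rather than as an activating ligand, was at 0.0987 and 0.106 FPKM. Jag1 thus made up 86.0% of the summed level of these 3 ligands in control and 77.7% in knockdown. Jag2, the other Jagged ligand, was not listed.

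Among Hes and Hey genes in iQNPs, Hes1 (chromosome 11, 72603481 to 72605673) was at 12.2 FPKM in control and 24.3 in knockdown, a plain ratio of 1.998 and a log2 ratio of 0.94. Hes6 (chromosome 9, 90639889 to 90641596) was at 2.63 and 6.02 FPKM, a plain ratio of 2.29 and a log2 ratio of 0.95. Both therefore lay next to the 2-fold limit, Hes6 passing it where the pseudocount was 0.1 FPKM or absent. Hey1 (chromosome 2, 95174029 to 95176430) went the other way, with 112 FPKM in control and 78.5 in knockdown, 1.42-fold lower (log2 ratio -0.50). Hes5 (chromosome 5, 171763868 to 171764636), a Notch effector with a locus of 768 bases, was listed at 0 in control and at 1.32 FPKM in knockdown, so no fold is given. In the same control group 11 of 80 ribosomal protein genes, which every cell uses, were also listed at 0, and 1 of 80 in knockdown iQNPs.

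In TAPs, 2 of 8 members past the minimum were at least 2-fold higher in knockdown, against 15.4% of all genes, and 0 were at least 2-fold lower, against 6.82%. These 2 were Hes6 and Hes1. As deposited, all 4 Hes and Hey genes had ratios above 0, and Jag1 was the 1 member past the minimum with a ratio below 0. The median log2 ratio of the 8 members was 0.49, beside 0.0071 over all 9309 genes past the minimum. It was 0.23 once the median of genes of like locus length was subtracted.

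Hes6 had the largest ratio of the 10 genes in TAPs, with 1.70 FPKM in control and 8.24 in knockdown, 4.84-fold higher (log2 ratio 1.77). It stayed at least 2-fold higher in each of the 12 alternatives in which it passed the minimum. Hes1 was at 3.67 and 11.1 FPKM, 3.02-fold higher (log2 ratio 1.37). It lay within 2-fold in 2 of 13 alternatives, with a log2 ratio of 0.82 where both groups had the same sum of FPKM and of 0.97 where genes of like span were subtracted. In knockdown TAPs Hes1 was the highest of the Hes and Hey genes, with 37.1% of a sum of 29.8 FPKM.

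Hes5 was at 1.28 FPKM in control TAPs and 2.29 in knockdown, a log2 ratio of 0.53, which was 0.13 with genes of like span subtracted. Hey1 was at 5.05 and 8.23 FPKM, a log2 ratio of 0.61, which was 0.015 once genes of like span were subtracted. Both were thus within 2-fold of control, at levels that 45.5% to 57.3% of listed genes lay below.

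Receptors in TAPs were close to their control levels. Notch1 was at 38.0 FPKM in control and 41.5 in knockdown, a log2 ratio of 0.12 that was -0.47 after scaling to an equal sum. Notch2 was at 7.23 FPKM in both groups, and its log2 ratio ran from -0.52 to 0.35 over the alternatives. Notch3 was at 0.0691 and 0.0514 FPKM. Among ligands Jag1 was at 23.2 and 14.7 FPKM, 1.58-fold lower (log2 ratio -0.63), and past 2-fold lower with the same sum of FPKM (-1.19). Dll1 was at 2.496 and 3.75 FPKM, a log2 ratio of 0.44 that was -0.016 after that scaling and -0.0040 with genes of like span subtracted. Dll3 was listed at 0 in control and at 0.179 FPKM in knockdown. Of 80 ribosomal protein genes, 13 were listed at 0 in control TAPs and 1 in knockdown TAPs.

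**Figure D2:**
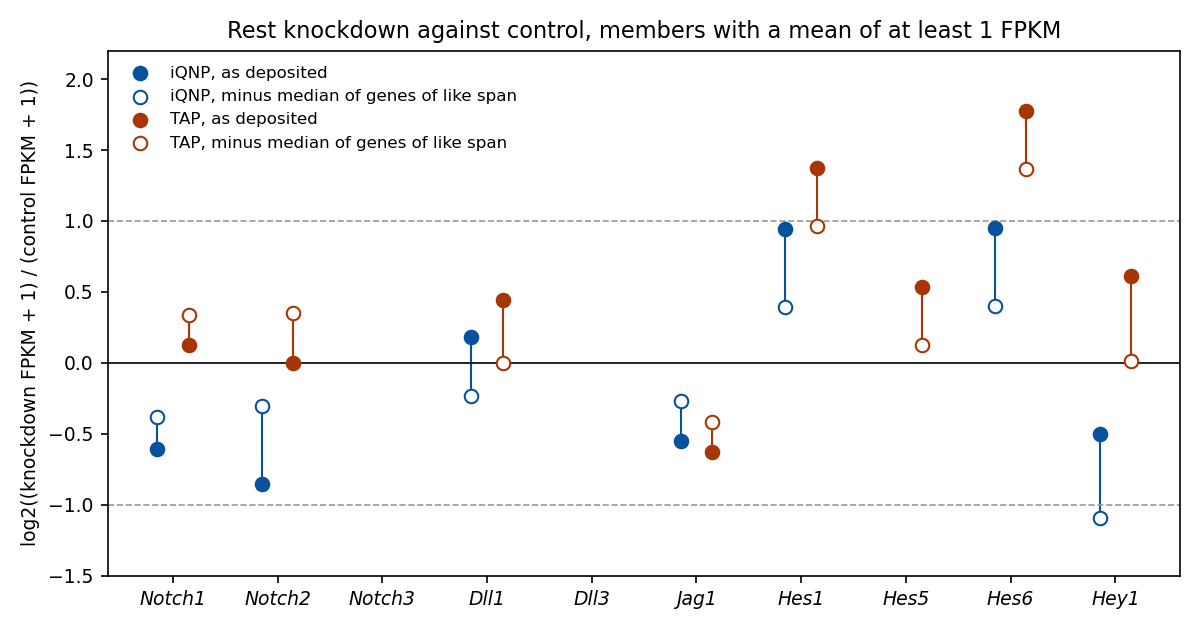
Log2 ratios of knockdown to control FPKM, each with 1 FPKM added, for the members past the minimum, as filled points as deposited and as open points after the median of genes of like locus span was subtracted. Dashed lines mark 2-fold. Hes6 in TAPs lies above the line in both forms (1.77 and 1.37), Hes1 in TAPs only as deposited (1.37 and 0.97), and Hey1 in iQNPs lies below the lower line only after subtraction (-0.50 and -1.09).

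Jag1 had ratios of -0.55 in iQNPs and -0.63 in TAPs. The ratios of Hes1 (0.94 and 1.37) and Hes6 (0.95 and 1.77) lay above 0 in both conditions and past 2-fold in TAPs alone. Those of Hey1 had opposite signs, at -0.50 and 0.61. Notch2 was lower after knockdown in iQNPs alone as deposited, at -0.86 and 0.00. With 1 value per group, whether any of these ratios differed between conditions was not tested.

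Locus span moved with the ratio over all genes. Genes spanning less than 5000 bases had a median log2 ratio of 0.55 in iQNPs and 0.50 in TAPs, and genes spanning 25000 bases or more had medians of -0.33 and -0.26. Hes1, Hes5, Hes6 and Hey1 span 768 to 2401 bases, while Notch1, Notch2 and Jag1 span 35419 to 131303. Of the short genes 34.5% were at least 2-fold higher in iQNPs and 32.8% in TAPs.

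Once the median of genes of like span was subtracted, the log2 ratio of Hes1 was 0.39 in iQNPs and 0.97 in TAPs, and that of Hes6 0.40 and 1.37. Those of Notch1 and Notch2 in iQNPs were -0.38 and -0.30. On this scale 1 of 7 members, Hey1, was at least 2-fold lower in iQNPs (-1.09), where 3.65% of all genes were, and none was higher, where 11.7% were. In TAPs 1 of 8, Hes6, was at least 2-fold higher, where 12.5% of all genes were, and none was lower, where 7.67% were. The part of span in these ratios was not tested further.

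**Figure D3:**
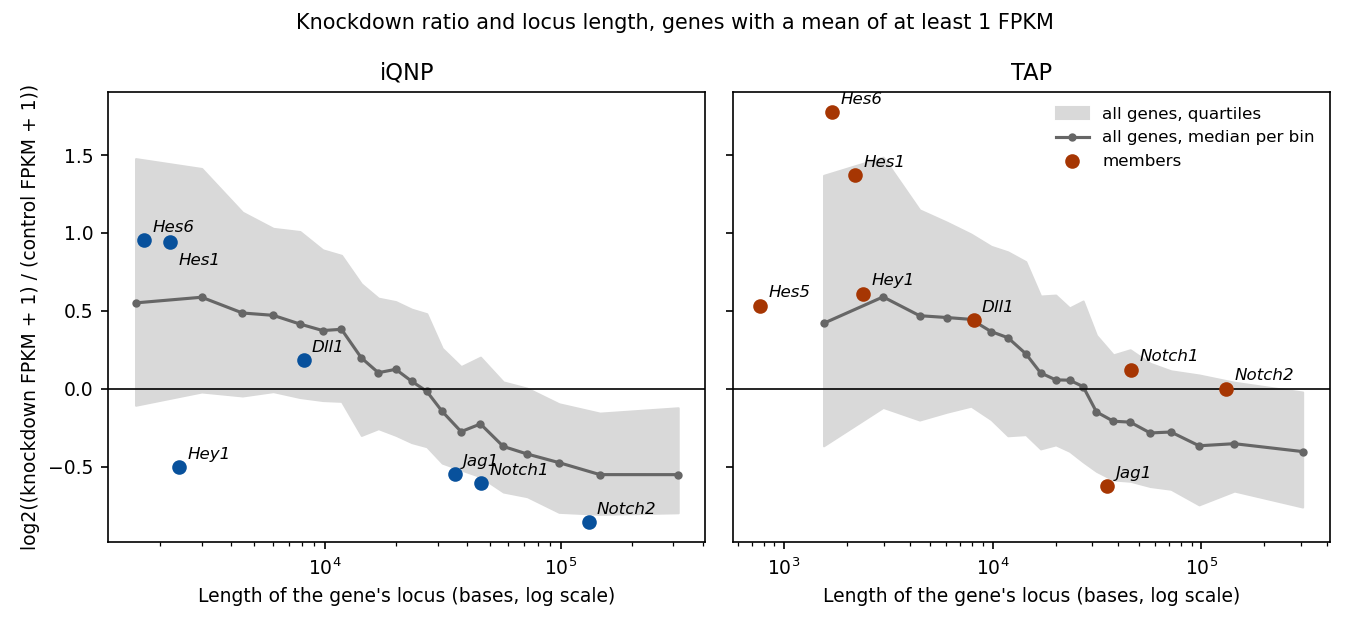
Log2 ratio of knockdown to control against the length of each gene's locus on a log axis, with the median and quartiles of all genes past the minimum in 20 bins. In both conditions the median runs from above 0 in short genes to below 0 in long ones. Hes6 lies above the quartiles in TAPs and Jag1 just below them, and in iQNPs Hey1 lies well below the quartiles and Notch1, Notch2 and Jag1 just below.

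Over all genes, 82.0% of those past 2-fold were higher in iQNPs and 69.2% in TAPs. Ribosomal protein genes made up 6.52% of summed FPKM in control iQNPs and 25.9% in knockdown, and 10.7% and 35.03% in TAPs. Scaling both groups to the same sum shifted log2 ratios by -0.53 and -0.61 and left 27.4% and 21.3% of called genes higher. The same without ribosomal protein genes shifted them by -0.19 and -0.15 and left 59.4% and 56.1% higher. Scaling to the upper quartile shifted them by 0.055 and 0.12, with 86.4% and 80.2% higher.

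The wider Notch pathway was described through 66 further symbols in 7 lists, older and newer names included, of which 48 were listed in the tables. In iQNPs 5 of the 37 past the minimum were at least 2-fold higher and 1 lower, with a median log2 ratio of 0.11. The lower one was the entry named Rbpj, which, as described below, cannot be read as the functional gene. In TAPs 8 of 38 were higher and 2 lower, with a median of 0.25. The shares of all genes given above were 14.4% and 3.15% in iQNPs and 15.4% and 6.82% in TAPs. With genes of like span subtracted 3 were higher and 1 lower in iQNPs, where 11.7% and 3.65% of all genes were. In TAPs 5 were higher and 2 lower on that scale, where 12.5% and 7.67% of all genes were. The entry named Rbpj was among the lower genes of that scale in both conditions.

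None of the 4 other receptors and ligands and none of the 5 other Hes and Hey genes that were listed passed the minimum. Jag2, Dner and Helt were not listed under these symbols, so their levels are unknown here. The highest values were 1.05 FPKM for Dlk1, a Delta-like protein without the domain that binds Notch, in knockdown iQNPs, and 0.599 FPKM for Hes7, the repressor of the segmentation clock, in the same group.

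Lfng encodes Lunatic fringe, a glycosyltransferase that changes which ligands a Notch receptor answers to. It was at 2.89 FPKM in control iQNPs and 15.7 in knockdown, 5.43-fold higher (log2 ratio 2.10). In TAPs it was at 0.781 and 14.6 FPKM, 18.7-fold higher without the added 1 FPKM (log2 ratio 3.13 with it). It was at least 2-fold higher in both conditions under each of 13 alternatives, with log2 ratios from 1.61 to 2.44 in iQNPs and 2.57 to 4.22 in TAPs. The gene with the highest mean over the 4 groups in its list was Poglut1, which adds O-glucose to the receptor, at 21.3 and 25.1 FPKM in iQNPs and 32.4 and 35.6 in TAPs.

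Among genes of receptor cleavage, Aph1a, a subunit of gamma-secretase, was at 34.7 and 102 FPKM in iQNPs and 31.4 and 76.5 in TAPs (log2 ratios 1.53 and 1.26). Its paralog Aph1b was at 0.660 and 10.9 FPKM in iQNPs, 16.5-fold higher, and listed at 0 and at 9.29 in TAPs. As given above, some ribosomal protein genes were also listed at 0 in control TAPs. RefSeq names 1 further copy of Aph1a and 2 of Aph1b, so how reads were shared between copies is uncertain. Furin, the protease that cleaves the receptor on its way to the surface, was at 16.3 and 33.4 FPKM in iQNPs (log2 ratio 0.997) and at 5.41 and 12.2 in TAPs (1.05). With genes of like span subtracted only Aph1b of this list stayed at least 2-fold higher. Psenen, another gamma-secretase subunit and the gene with the highest mean over the groups in this list, was within 2-fold at 433 and 488 FPKM in iQNPs and 244 and 295 in TAPs.

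In the nuclear complex, the acetyltransferase gene Kat2a was at 14.9 and 38.1 FPKM in iQNPs and 23.6 and 67.2 in TAPs (log2 ratios 1.30 and 1.47, and 0.89 and 1.02 with genes of like span subtracted). The entry named Rbpj was at 65.6 and 31.04 FPKM in iQNPs and 61.5 and 31.1 in TAPs (-1.06 and -0.96). That entry cannot be read as the functional gene, because its locus lies on chromosome 5 of rn4 with a span of 4407 bases. RefSeq places Rbpj on another chromosome, and on chromosome 5 it lists a pseudogene, Rbpjl2, with the synonym Rbpsuh, an older name of Rbpj. Snw1, a cofactor of the complex with the highest mean over the 4 groups in this list though not the highest value in each, was at 49.4 and 43.4 FPKM in iQNPs and 50.6 and 53.4 in TAPs. It has 5 named copies, so its value is uncertain.

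Of the corepressors, the histone deacetylase Hdac1 was at 35.3 and 77.1 FPKM in iQNPs and 38.2 and 80.8 in TAPs, with 18 named copies that make its value uncertain. The Groucho family members Tle2 and Tle3, which Hes proteins recruit, were at least 2-fold higher in TAPs, at 4.56 and 11.5 FPKM and at 6.28 and 14.4 FPKM. In iQNPs their log2 ratios were 0.52 and 0.44. With genes of like span subtracted the log2 ratios in TAPs were 0.95 for Tle2, within 2-fold, and 1.30 for Tle3. Aes, a short Groucho relative, had the highest mean over the groups in this list at 731 and 925 FPKM in iQNPs and 552 and 730 in TAPs.

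Among negative regulators, Dtx4, a ubiquitin ligase of the Deltex family, was at 3.14 and 0.935 FPKM in TAPs (log2 ratio -1.10), and at 0.498 and 0.188 in iQNPs. The kinase gene Aak1, which acts in endocytosis, was at 14.5 and 5.95 FPKM in TAPs (-1.16, and -0.81 with genes of like span subtracted) and 15.6 and 7.95 in iQNPs (-0.89). Dtx3, with the highest mean over the groups in this list, was at 88.5 and 117 FPKM in iQNPs and 63.6 and 67.4 in TAPs. Nrarp, a feedback inhibitor induced by Notch and named outside the naming rule after its values were seen, was at 2.35 and 3.37 FPKM in iQNPs and 2.18 and 3.52 in TAPs. Its log2 ratios, 0.385 in iQNPs and 0.507 in TAPs, lay within 2-fold. With genes of like span subtracted they changed sign, to -0.20 and -0.088.

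**Figure D4:**
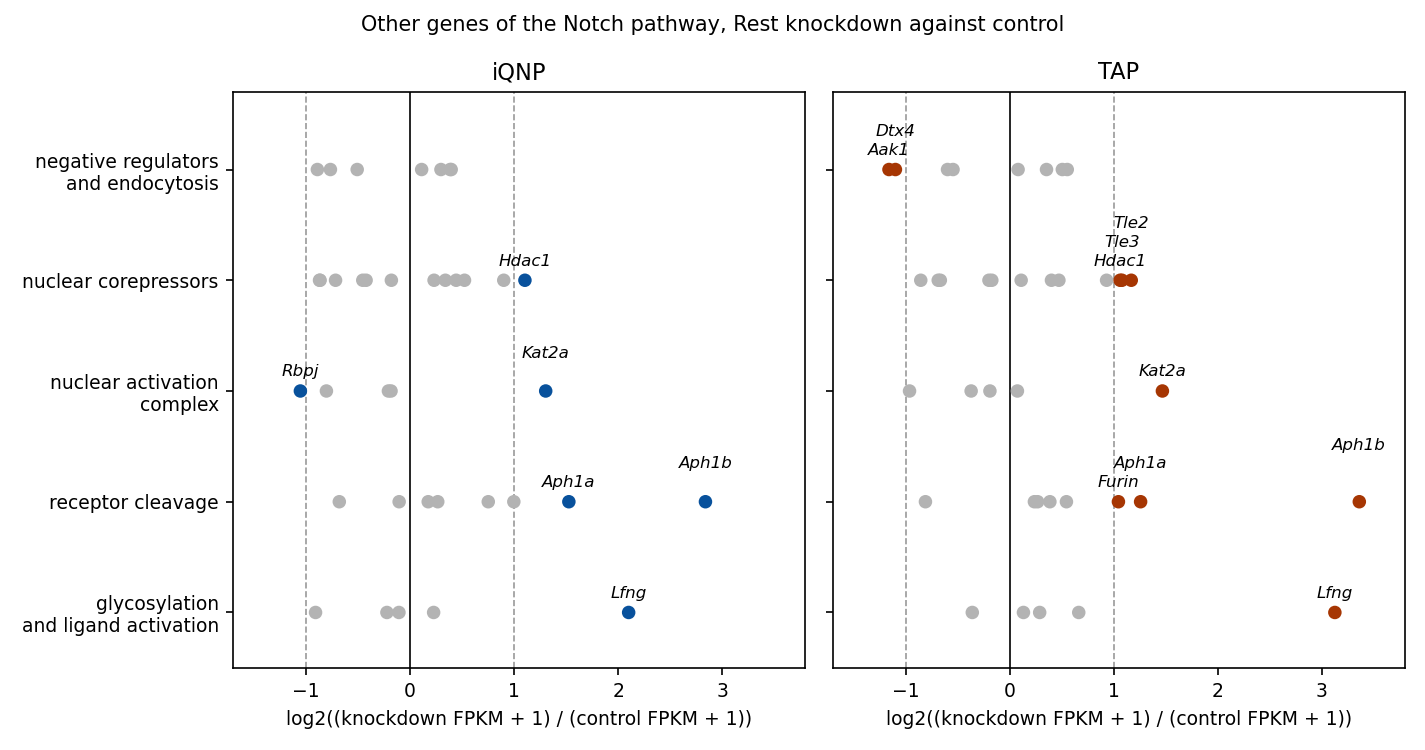
Log2 ratios of knockdown to control for the other Notch pathway genes past the minimum, by list, with genes at least 2-fold from control in colour and named. Lfng (2.10 and 3.13) and Aph1b (2.84 and 3.36) lie farthest to the right in both conditions, and Aph1b was listed at 0 in control TAPs. The gene past 2-fold lower in iQNPs is the entry named Rbpj, which cannot be read as the functional gene.

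The genes whose pattern over the 4 groups lay nearest to a member were found by Euclidean distance between log2(FPKM + 1) values centred per gene, among 7680 genes with a mean of at least 5 FPKM. Symbols starting with LOC or RGD were left out of the search. For Notch1 they were Dusp16 (distance 0.0811), Ep400 and Abcc4. For Hes1 they were Slc4a2 (0.0692), at 24.5, 49.9, 8.24 and 21.8 FPKM in control and knockdown iQNPs and control and knockdown TAPs, then Olfm2 and Aldh2. For Hes5 they were Rpl4 (0.0776), Slc1a5 and Casp4. Hes5 itself lay below that minimum, from 0 FPKM in control iQNPs to 2.29 in knockdown TAPs, while Rpl4 lay between 409 and 1369. The pattern of Hes5 therefore depends on the added 1 FPKM and on a value listed at 0. Distances over 4 group values are a description only.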

How the data were processed

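Total RNA of HCN cells was depleted of ribosomal RNA and sequenced. With TopHat2 the authors mapped the reads to rn4, a rat genome build, and deposited Cuffdiff tables with 1 FPKM value per gene and group, 1 table per growth condition, each marked as revised without a statement of what was revised. Versions and the gene annotation are not given in the sources used here. The tables also hold the authors' fold changes, test statistics, p-values, q-values and marks of significance, which were not used. The status column entered 1 alternative only.

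Ratios used a pseudocount of 1 FPKM, a minimum mean of 1 FPKM over the groups compared and a fold of 2. There was no test. The 10 genes, the lists and the alternatives were chosen with earlier results of these data known. The text names Rest, the 10 genes, from each list the genes past 2-fold in either condition and the gene of the highest mean FPKM, and the 3 nearest patterns for Notch1, Dll1, Hes1 and Hes5. Some results that this rule covers are not reported here. Of 13 alternatives 4 were added after the data were seen, among them subtraction of the median of genes of like span, in 20 bins of equal gene number. Symbols of all 10 genes matched the RefSeq table of assembly GRCr8, none with a named pseudogene or numbered copy, and no other listed gene overlaps their loci. Locus coordinates are those of the authors' tables. Calculations used Python 3.11.15, numpy 2.4.6, pandas 2.3.3 and matplotlib 3.10.9 and were tested on simulated data.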

Additional observations from a re-analysis of the deposited data

Results flagged for a closer look

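Hey1 had ratios of opposite sign in the 2 growth conditions, each at least 0.25 log2 units from 0. Its log2 ratio of knockdown to control was -0.50 in iQNPs and 0.61 in TAPs, a difference of 1.11. The difference was not tested, as each group has 1 value. The ratio in iQNPs lay between -1.09 and -0.45 and that in TAPs between 0.015 and 0.72 over all settings, so the sign in TAPs held with little distance from 0 in some of them.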

How the results depend on the processing

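Single libraries could not be left out in turn, since the tables give 1 value for each group. No paired analysis was possible because the columns carry no value per library. In iQNPs the count of members at least 2-fold higher was 0, and it was 1 with a pseudocount of 0.1 FPKM, 1 with none and 2 at a fold of 1.5. Over all genes it was 1377 of 9586, and 1562 of 9586, 1540 of 9542 and 2380 of 9586 in those settings. The count of members at least 2-fold lower was 0, and it was 4 with the same sum of FPKM, 1 with the same sum without ribosomal protein genes, 2 at a fold of 1.5 and 1 with genes of like span subtracted. Over all 9586 genes it was 302, and 2008, 743, 1755 and 350 in those settings, in that order. In TAPs the count of members higher was 2, and it was 1 each with a minimum of 5 FPKM, with the same sum and with genes of like span subtracted. Over all genes it was 1430 of 9309, and 1248 of 7846, 653 of 9309 and 1165 of 9309 in those settings. The count of members lower was 0, and it was 1 each with the same sum and at a fold of 1.5. Over all 9309 genes it was 635, and 2419 and 1888 in those settings. The median log2 ratio of members in iQNPs was -0.50, -1.02 with the same sum, 0.0094 without a minimum and -0.27 with genes of like span subtracted. In TAPs it was 0.49, 0.033 with the same sum, 0.12 with a minimum of 5 FPKM and 0.23 with genes of like span subtracted. The other alternatives left the counts of members within 1.5 times and their medians within 0.25, a tolerance set after the data were seen.

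Over all genes, 1377 were at least 2-fold higher and 302 lower in iQNPs, and 1430 and 635 in TAPs. With the same sum these were 759 and 2008, and 653 and 2419. At a fold of 1.5 they were 2380 and 1755, and 2455 and 1888. The lower count in iQNPs was 743 with the same sum without ribosomal protein genes, 473 with a pseudocount of 0.1 FPKM and 499 with none, and that in TAPs was 413 at the same upper quartile. Of the other pathway genes, 5 were higher and 1 lower in iQNPs, and 3 and 9 with the same sum. In TAPs 8 were higher and 2 lower, and 2 and 9 with the same sum. Without genes that have named copies, 2 of 28 were higher and 0 lower in iQNPs, and 5 of 29 higher and 2 lower in TAPs. Over all genes under that setting, 992 of 8190 were higher and 274 lower in iQNPs. In TAPs 1065 of 7925 were higher and 552 lower. Genes listed at 0 in either group were left out where no minimum or no pseudocount was set. As depth per library is unknown, values near 0 FPKM, such as those of Notch3 and Dll3, carry no error here.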

Other observations

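Id proteins bind and inhibit basic helix-loop-helix factors, Hes1 among their known partners, and are induced by BMP. Id3 was at 220 FPKM in control iQNPs and 1075 in knockdown, and at 148 and 609.5 in TAPs, 4.88-fold and 4.11-fold higher. Id2 was at 652 and 475 FPKM in iQNPs and 131 and 141 in TAPs. Id1 was at 260 and 426 FPKM in iQNPs and 200.01 and 177 in TAPs. Id4 was at 181 and 167 FPKM in iQNPs and 102 and 82.1 in TAPs. Of the 4, only Id3 was at least 2-fold from control in either condition as deposited, where 14.4% of all genes were higher and 3.15% lower in iQNPs and 15.4% and 6.82% in TAPs.

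Of 6 listed proliferation genes past the minimum, 4 were at least 2-fold higher in control TAPs than in control iQNPs, where 6.07% of all genes were, and all 6 had ratios above 0. Top2a, the topoisomerase of dividing cells, was at 65.8 FPKM in control iQNPs and 346 in control TAPs, and at 33.1 and 172 in the knockdown groups. Pcna, the replication clamp and the gene with the highest mean over the 4 groups in this list, was at 103 and 214 FPKM in the controls and 159.7 and 317 in the knockdown groups. Pcna has 3 named copies, so its value is uncertain.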
